A study of Drosophila melanogaster with 2 samples.

Results

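Of the 3842 peaks of the GAGA factor called in Drosophila melanogaster Kc cells, 631 (16.4%) lay on chromosome arm 2L. They were chosen by their chromosome name alone, which had to be exactly 2L, so that peaks on heterochromatin scaffolds were not included. The peaks came from chromatin immunoprecipitation followed by sequencing (ChIP-seq) with an antibody named KW3-Trl-D2, for which the labels give 1 ChIP sample and 1 input sample of chromatin taken without antibody. Both samples were untreated and came from Kc cells, a cell line that was derived from Drosophila embryos. The labels' growth protocol describes the collection of fly material and not a cell culture, and neither culture conditions nor the number of libraries behind the list is given in the sources used here. There was 1 peak list, so values carry no error between replicates, differences between arms were not tested, and the read depth behind each peak is unknown.

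The GAGA factor is encoded by Trl (Trithorax-like). It is a zinc finger protein with a BTB domain, through which it can bind several neighbouring GA-rich elements at the same time. It is known for keeping promoters accessible, for paused RNA polymerase at heat shock genes, and for its part at Polycomb response elements. Arm 2L carries many regulators of development, among them wg, dpp, odd, sna, esg and nub, and the tandem repeat of the histone genes. Positions below are 1-based coordinates of BDGP5, the assembly that the submitters used. No gene was assigned to a peak, because the gene table used here belongs to a later assembly. No sequence is shown for the same reason.

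The arm was bound thinly, and binding was uneven along it. Its first peak started at 66305 and its last ended at 22886593, which was taken as the length of the arm. Peaks covered 367.8 kb, or 1.61% of that length, at 27.6 peaks per Mb. On the other major arms the same measure was 33.3 peaks per Mb on 2R, 32.1 on 3L, 30.9 on 3R and 37.8 on X, with 33.4 over these 4 arms together. The density on 2L was thus 0.826 times that of the other arms. Sequence past an arm's final peak was not counted, and would lower its density.

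The lower density did not extend to all classes of score. Each peak has a score from the authors' peak caller, which is used here to rank and group peaks within the list, and strong and weak below refer to it. The density of peaks scored under 100, the weakest class, lay within the range of the other arms, with 7.38 per Mb on 2L, against 6.35 on 2R, 5.997 on 3L, 6.09 on 3R and 7.92 on X. Peaks scored 100 or more numbered 20.2 per Mb on 2L, against 27.0 on 2R, 26.1 on 3L, 24.8 on 3R and 29.9 on X. The ratio of 2L to the other 4 arms together was 1.13 for scores under 100 and 0.753 for scores of 100 or more. Within the stronger peaks, the ratio was 0.765 for scores of 100 to 300, 0.659 for 300 to 1000, 0.890 for 1000 to 3000 and 0.642 for 3000 and over. In these 4 classes the density on 2L was below that of each other arm.

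**Figure D1:**
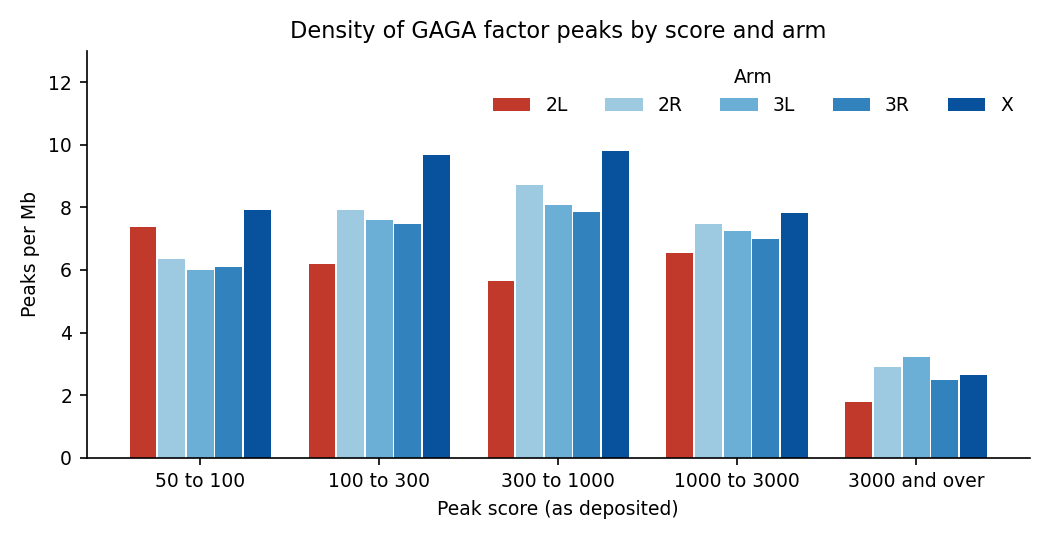
Density of peaks (peaks per Mb up to the last peak of the arm) in 5 classes of the deposited score, for 2L and the other 4 major arms. Bars are single values from 1 list. In the class of 50 to 100 the bar of 2L (7.38) is exceeded by X (7.92) alone, and in the other 4 classes 2L has the lowest bar.

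Weak peaks made up a larger share of 2L than of each other major arm. On 2L, 169 of 631 peaks (26.8%) scored under 100, against 620 of 3156 (19.6%) on the other arms together, where single arms ran between 18.7% on 3L and 20.9% on X. The direction was the same at other thresholds tried after seeing the data. Under 75 the share was 16.3% on 2L and 11.7% on the other arms, and under 200 it was 39.8% on 2L and 35.6% on the other arms. The median score was 305.8 on 2L, with quartiles at 94.0 and 1270. The other arms had medians of 405.4 (2R), 440.2 (3L), 435.3 (3R) and 351.0 (X). Whether weak peaks on 2L and elsewhere rest on similar numbers of reads was not tested.

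Peaks of 2L were short, and 50% of them measured between 362 and 711 bp. Their median width was 504 bp, against medians of 556.5 bp on 2R, 526 bp on 3L, 524 bp on 3R and 505 bp on X. Width followed the score. The median width on 2L was 336 bp for scores under 100, 421.5 bp for 100 to 300, 551 bp for 300 to 1000, 724.5 bp for 1000 to 3000 and 995 bp for 3000 and over. In the same classes the other arms together had medians of 350.5, 448, 560, 737.5 and 1064.5 bp. Single arms lay on both sides of 2L in the upper 3 classes, for example with 539 bp on 3L for 300 to 1000 and 923 bp on 2R for 3000 and over. Across the 631 peaks, the correlation of width with score was 0.75 by Spearman's rho and 0.66 by Pearson's r. Both were called from the same reads, and wide and strong peaks share that source.

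The narrowest and the widest peaks of the arm differed in score. Of the 75 peaks under 300 bp, 62 scored under 100, and the highest of the 75 scored 311.9. The 10 narrowest measured 148 to 204 bp and scored 50.34 to 260.3, with 8 of them under 100. At the other end, 61 peaks measured 1 kb or more. Their median score was 2047, the lowest was 198.8, and 20 scored 3100 or more.

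**Figure D2:**
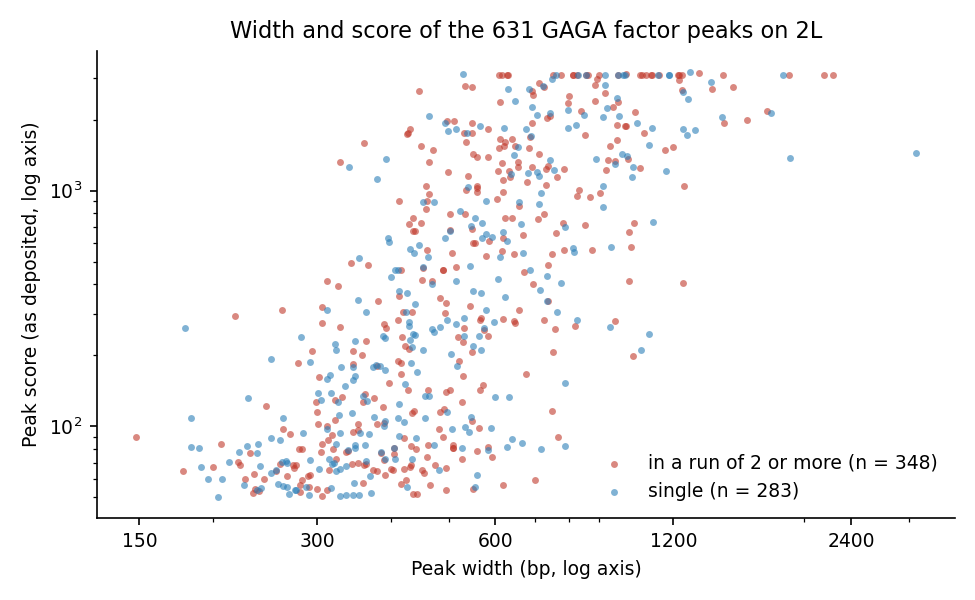
Width (bp, log axis) and deposited score (log axis) of the 631 peaks on 2L, 1 point a peak, coloured by whether another peak lies within 2 kb. Scores span 50.34 to 3183.54 and the row of points at the top holds the 36 peaks with the shared score of 3100; both colours spread over the whole range.

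The highest scores on 2L belonged to 40 peaks scored 3100 or more. The highest score, 3183.54, belonged to a peak from 21827975 to 21829257 (1283 bp). It was followed by peaks from 2885827 to 2887153 (score 3162.23, 1327 bp), from 2242122 to 2242650 (score 3135.69, 529 bp) and from 16715902 to 16716901 (score 3119.65, 1000 bp). The remaining 36 peaks shared the score of 3100 and cannot be ranked among themselves. Why they share it is not stated. Whether peaks scored above 3100 were bound more strongly than these 36 is therefore unknown. Below 3100, the next score was 3086.77. Peaks with the shared score made up 5.71% of the arm, against 8.24% on 2R, 8.19% on 3L, 6.97% on 3R and 6.03% on X.

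Among the peaks with the shared score, width ran between 609 and 2232 bp with a median of 990.5 bp. The widest lay from 11806142 to 11808373 (2232 bp), from 3655075 to 3657234 (2160 bp), from 16286462 to 16288346 (1885 bp) and from 6786347 to 6788188 (1842 bp). Next in width were a peak of 1459 bp from 12545419 to 12546877 and one of 1241 bp from 9175926 to 9177166. A pair of nearly equal width followed, from 5979500 to 5980726 (1227 bp) and from 16268866 to 16270085 (1220 bp). Peaks from 8277400 to 8278580 (1181 bp), from 5107714 to 5108892 (1179 bp) and from 18795827 to 18796961 (1135 bp) completed the 15 highest by score and then width. Of these 15 peaks, 5 had no other peak within 2 kb and 10 lay in a run.

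The widest peak on 2L did not have one of these scores. It lay from 478707 to 481792, measured 3086 bp and scored 1447.9, and no peak on any chromosome of the list was wider. Peaks from 160355 to 162247 (1893 bp, score 1374.54), from 3301748 to 3303506 (1759 bp, score 2140.07) and from 19164702 to 19166431 (1730 bp, score 2176.09) were likewise wide with scores below 3100. A peak of 1599 bp from 248027 to 249625 scored 1998.64, and one of 1512 bp from 12504081 to 12505592 scored 2741.67. The other 4 of the 10 widest were the widest peaks with the shared score. The first 1 Mb of the arm held 3 of the 10 widest peaks, and 46 of all 631 peaks.

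Along the arm, peaks alternated between crowded and bare stretches. In the 22 full 1 Mb segments the number of peaks ran between 5 and 53, with a median of 28. The segment from 16000001 to 17000000 held the most, 53 peaks covering 32.2 kb, among them 8 of the 40 with a score of 3100 or more. It was followed by the first segment of the arm, from 1 to 1000000, with 46 peaks covering 34.2 kb. The segment from 8000001 to 9000000 held 45 peaks and had the highest median score, 1028. The fewest peaks lay from 10000001 to 11000000, where 5 peaks covered 1.76 kb and had a median score of 87.1. Next came the segments from 17000001 to 18000000 with 11 peaks and from 4000001 to 5000000 with 14. No peak in these 3 poorest segments scored 3100 or more. In all, 6 of the 23 segments held no such peak, and only 40 of the arm's 631 peaks had such a score.

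By blocks of 5 Mb, density was highest from 5 to 10 Mb, with 182 peaks or 36.4 per Mb, and lowest from 10 to 15 Mb, with 100 peaks in the same length. The first block had 29.8 peaks per Mb, the block from 15 to 20 Mb had 26.6 and the last 2.89 Mb had 23.2. Strength did not follow this order. The median score was 228.2 in the first block, 297.9 in the second, 414.0 in the third, 458.2 in the fourth and 244.4 in the last. Peaks scored under 100 made up 33.6% of the first block and 18.8% of the fourth.

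At the scale of 100 kb, 59 of the 229 windows of 2L held no peak (25.8%), against 19.8% of windows on 2R, 19.4% on 3L, 15.1% on 3R and 17.4% on X. Where a window held peaks, it held 3.71 on average on 2L, against 4.14 on 2R, 3.98 on 3L, 3.63 on 3R and 4.57 on X. The number per occupied window on 2L thus lay just above that of 3R, while its share of empty windows was above that of the other 4 arms. On 2L, 43 windows (18.8% of the arm) held at least 50% of the peaks.

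**Figure D3:**
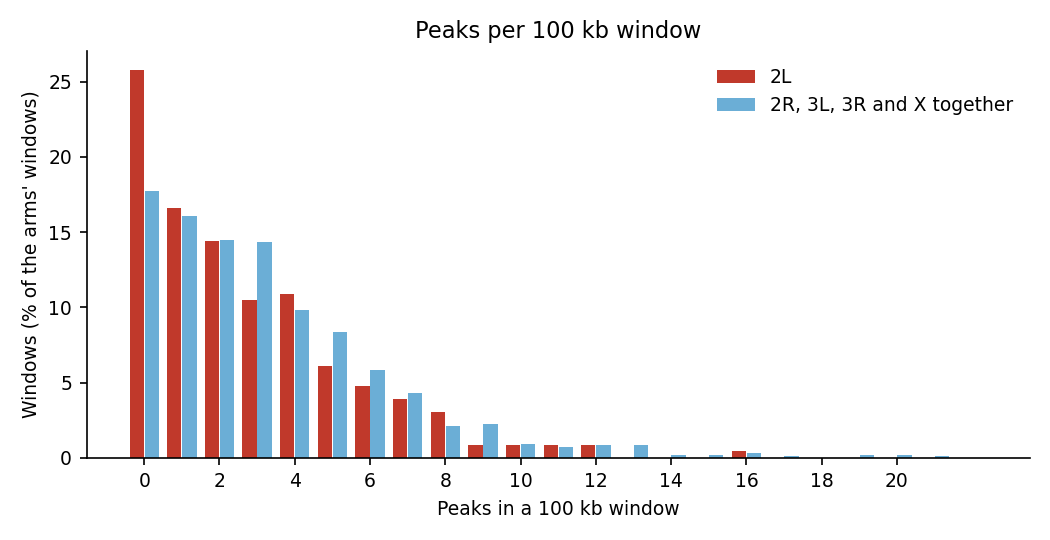
Share of 100 kb windows (%) by the number of peaks they hold, for 2L beside the other 4 major arms together. Windows without a peak make up 25.8% of 2L and 17.7% of the other arms, and the fullest window holds 16 peaks on 2L and 21 on the other arms.

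The fullest window on 2L ran from 16500001 to 16600000 and held 16 peaks covering 9.71 kb. Its scores spanned 79.11 to 3100, and 3 of the peaks had the shared score. In it, a peak of 1102 bp with the shared score started at 16520038, another of 966 bp at 16525768, and a run of 5 peaks began at 16532619. The last of the 3, 825 bp wide, began at 16587675.

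Windows with 12 peaks each lay from 12500001 to 12600000 and from 16200001 to 16300000. Of the 12 peaks in the second of these windows, 10 were packed between 16267854 and 16299978, among them 3 with the shared score. The windows from 400001 to 500000 and from 500001 to 600000 held 11 peaks each, with median scores of 162.9 and 264.3. Those from 8000001 to 8100000 and from 20800001 to 20900000 held 10 each, and no peak in either of these scored 3100. Windows with 9 peaks lay from 5900001 to 6000000 and from 19500001 to 19600000, where the median scores were 979.0 and 1532. The window from 100001 to 200000 was the first of 7 with 8 peaks, and had a median score of 1461. Over the 10 fullest windows the median score thus ran between 162.9 and 1532, without following the number of peaks.

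The longest stretch of 2L without a peak ran for 508.3 kb, from 4372190 to 4880504. It was bordered by a peak scored 1750.94 on its left and by one of 189 bp scored 81.21 on its right, which was followed by 3 more peaks under 100. The second, of 460.8 kb from 1187883 to 1648707, lay between 2 weak peaks scored 80.02 and 66.62, each of which had a strong neighbour within 1 kb (scores 1339.6 and 1611.95). The next, of 362.9 kb from 17778719 to 18141607, was also bordered by peaks under 100. After it, a stretch of 326.7 kb from 13551025 to 13877744 had peaks scored 1144.01 and 797.17 at its borders.

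The other 6 of the 10 longest stretches measured 252.1 to 305.7 kb. They lay from 14689774 to 14995463, from 10457796 to 10756127, from 18156517 to 18444497, from 17102745 to 17379124, from 11529062 to 11804374 and from 5547366 to 5799491. The 10 stretches together took up 3.35 Mb, or 14.7% of the arm. Of the 20 peaks at their borders, 8 scored under 100 and 3 scored 1000 or more, with a median of 132.9. Of all 631 peaks of the arm, 169 (26.8%) scored under 100, 150 scored 1000 to 3000 and 41 scored 3000 and over. Their median score was 305.8. The difference between border peaks and all peaks was not tested. Of the 10 stretches, 3 lay between 17102745 and 18444497.

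Stretches of 100 kb or more were frequent on 2L. There were 64 of them, which added up to 12.0 Mb or 52.5% of the arm, against 44.9% on 2R, 41.7% on 3L, 48.7% on 3R and 41.6% on X. Among all gaps between neighbouring peaks, such stretches made up 10.2% on 2L and 7.77% on the other arms together. By arm they were 55 of 703 gaps on 2R, 55 of 744 on 3L, 82 of 860 on 3R and 53 of 845 on X, so that 3R lay nearest to 2L. The median gap was 8847 bp on 2L, against 10113 bp on 2R, 8384 bp on 3L, 8528 bp on 3R and 6258 bp on X. The longest gap was 508.3 kb on 2L, against 816.7 kb on 2R, 345.8 kb on 3L, 437.9 kb on 3R and 431.2 kb on X.

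Peaks standing alone between 2 such stretches were few. There were 11 on 2L, with a median score of 114 and a median width of 343 bp. Over all peaks of the arm the median score was 305.8. Of the 11, 5 (45.5%) scored under 100, against 26.8% of all peaks of the arm. None scored 3100 or more, a score that only 40 of all 631 peaks of the arm reached. The strongest, from 20310639 to 20311527, scored 1362.84 and was 889 bp wide, while the other 10 scored at most 310.67. In the poorest segment of the arm, 3 of the 11 followed each other, at 10220765 (score 54.65), 10457537 (score 87.07) and 10756128 (score 114.0). From 10010293 to 11000000 the list held 1 further peak, at 10967228 (score 66.23).

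The share of closely spaced peaks on 2L lay within the range of the other arms. Of the 630 gaps on 2L, 214 (34.0%) were under 2 kb, against 31.2% on 2R, 32.7% on 3L, 34.0% on 3R and 36.6% on X. A gap under 250 bp separated 93 neighbouring pairs (14.8%), against 13.2% of gaps on the other arms together. The smallest gap on 2L was 3 bp. In 12 of these pairs both peaks scored 1000 or more, in 5 both scored under 100, and in 11 a peak of 1000 or more stood beside one under 100. The wider peak was also the stronger in 65 of the 93 pairs (69.9%). How often the caller split a single enriched region was not tested.

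Joined at gaps under 2 kb, the peaks of 2L formed 417 runs, of which 283 were single peaks. The others were 86 pairs, 26 runs of 3, 13 runs of 4, 8 runs of 5 and 1 run of 6. Runs of 2 or more held 348 peaks (55.2%), against 50.6% on 2R, 54.2% on 3L, 56.9% on 3R and 57.2% on X. With peaks closer than 500 bp merged, the share on 2L was 29.7%, and that of gaps under 2 kb was 16.5% in place of 34.0%. No run on 2L exceeded 6 peaks, a size that was also the largest on 3L and 3R, while 2R reached 11 and X reached 12. Runs of 5 or more numbered 9 on 2L, against 5 on 2R, 6 on 3L, 5 on 3R and 15 on X.

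Peaks in longer runs tended to score higher. The median score was 448.6 for the 98 peaks in runs of 4 or more, 406.6 for the 250 in runs of 2 or 3, and 259.6 for the 283 single peaks. Of the peaks in runs of 4 or more, 11.2% scored 3100 or more, as did 6.4% of those in runs of 2 or 3 and 4.59% of single peaks. Peaks under 100 were present in all 3 groups, at 23.5%, 26.4% and 28.3% in the same order. Of the 40 strongest peaks, 13 (32.5%) were single, against 44.8% of all peaks of the arm. Peaks of 1 run share their neighbourhood and are not independent, and no test was made.

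The 22 runs of 4 or more peaks spanned 2.27 to 6.94 kb with a median of 4.44 kb, and peaks covered 40.2% to 87.0% of a run. Their number was 2 with peaks closer than 500 bp merged and 7 at scores of 100 or more. It was 2 in the highest 50% of scores of the whole list and 11 with runs joined at 1 kb. In 21 of the 22 the strongest peak scored at least 1000, and in 11 it scored 3100 or more. Of all 631 peaks of the arm, 150 scored 1000 to 3000 and 41 scored 3000 and over, 40 of them 3100 or more. The strongest of 4 or more peaks tends to score above a single peak by construction, and no test was made. A peak under 100 was present in 16 of the runs, 6 of which also held one of 3100 or more. Peaks under 100 made up 23.5% of the peaks in these runs, against 26.8% of all peaks of the arm. The first 10 Mb of the arm held 15 of the 22. Of all peaks of the arm, 23.6% lay from 0 to 5 Mb and 28.8% from 5 to 10 Mb.

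**Figure D4:**
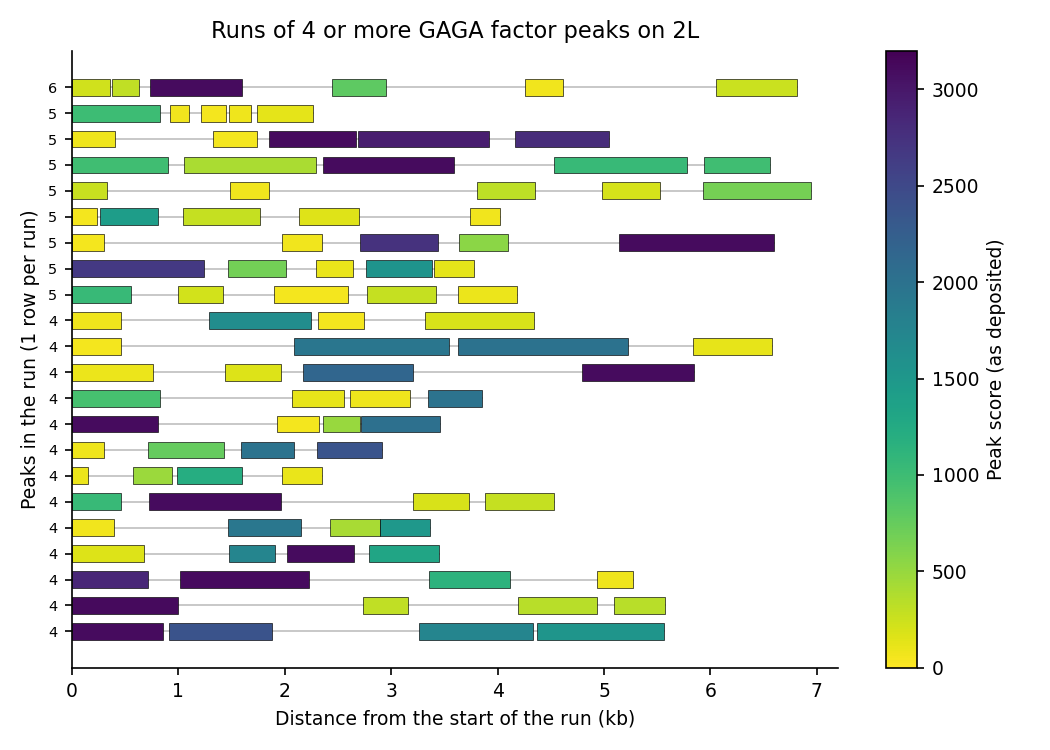
The 22 runs of 4 or more peaks on 2L, 1 row each, ordered by size and then by position; boxes are peaks drawn to scale by their distance from the start of the run (kb) and coloured by the deposited score. In 11 rows at least 1 peak has a score of 3100 or more, and 16 rows hold a peak under 100. Of all 631 peaks of the arm, 40 scored 3100 or more and 169 scored under 100.

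The run of 6 lay from 5145067 to 5151877. Its scores in order of position were 229.96, 311.94, 3100, 793.33, 69.57 and 259.5, so that 1 strong peak of 862 bp stood among 5 weaker ones. A run from 5977136 to 5983694 was the broadest in bound sequence among the runs of 5. Its peaks, scored 978.97, 405.42, 3100, 1047.1 and 985.63, covered 5.24 kb or 79.9% of it, and the lowest score was 405.42.

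Strong peaks stood side by side in a run from 2750877 to 2755925. It opened with 2 weak peaks scored 80.64 and 57.11, after which 3 peaks scored 3100, 2949.25 and 2806.83 followed at gaps of 23 and 245 bp. A run from 12540281 to 12546877 had its strongest peaks apart, with scores of 54.07, 65.17, 2743.76, 560.23 and 3100. In the fullest window, the run from 16532619 to 16536396 had scores of 2667.95, 684.73, 102.75, 1541.75 and 131.52, and peaks covered 83.0% of it.

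The remaining 4 runs of 5 held no peak above 1425.22. The most tightly packed lay from 2362579 to 2364848, where a peak scored 1006 was followed by 4 scored 64.74, 54.36, 83.82 and 127.13, together covering 87.0% of 2.27 kb. The longest, from 7418482 to 7425423, spanned 6.94 kb and had the lowest maximum of the 22 runs, 664.69. In the run from 8083267 to 8087285 the second peak scored 1425.22, and the 4 others scored at most 282.42. The run from 20821607 to 20825792 opened with a peak scored 1040.39, and its other peaks scored at most 275.36.

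Density within 100 kb and strength could also be compared across the arm. The 38 peaks that were alone in their window had a median score of 164.1 and a median width of 423 bp. Of these, 42.1% scored under 100 and none scored 3100 or more. Over the whole arm, 26.8% scored under 100 and 40 of 631 peaks scored 3100 or more. The 156 peaks in windows with 8 or more had a median score of 406.2 and a median width of 556.5 bp, with 22.4% under 100 and 9.62% at 3100 or more. Peaks in windows of intermediate density lay between them, with medians of 305.9 for windows of 2 to 4 peaks and 284.3 for windows of 5 to 7. The order of these 2 middle classes was not that of their density.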

How the data were processed

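Per the submitters' processing notes, reads were aligned with Bowtie to BDGP5, and per the file headers peaks were called with MACS. Versions, settings, the use of the input and any pooling of libraries are not stated in the labels or headers. The authors deposited a chromosome, start, end and score for each peak. The scale of the score is not stated. Starts were read as BED positions and raised by 1. A gap is the number of bases between neighbouring peaks, a run joins peaks at gaps under 2 kb, and a peak belongs to the 100 kb window or 1 Mb segment that holds its midpoint. Values were computed with pandas 2.3.3 and NumPy 2.4.6 under Python 3.11.15, intervals with SciPy 1.17.1 and plots with Matplotlib 3.10.9, and the functions were tested on simulated data. With 1 ChIP list there was no test between samples. The named items are the 15 peaks with the highest score (ties by width, then position), the 10 widest, the runs of 5 or more, the 10 fullest windows and the 10 longest peak-free stretches. The 10 narrowest are given by their range. Other stretches and streaks were picked with their values in view. Members and rules were chosen with earlier results of these data known.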

Additional observations from a re-analysis of the deposited data

How the results depend on the processing

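Of 40 recomputed values, 14 stayed within the 95% interval of the value reported or within 1.5 times a count, and 26 moved. Intervals (Wilson, exact binomial, exact Poisson or order statistics) hold counting error only, and none of the values has a test. The longest peak-free stretch has no interval and is not a count, and its values were placed with those that moved. The number of peaks on 2L was 499 with peaks closer than 500 bp merged and 462 at scores of 100 or more. It was 294 in the highest 50% of scores, which here means scores above 379.79, the median of the whole list and not of 2L. Fewer peaks were kept by construction. The density became 21.8, 20.2 and 12.8 peaks per Mb under these 3 settings. The ratio of density on 2L to the other arms was 0.811 after merging, 0.753 at scores of 100 or more, 0.753 in the highest 50%, 0.823 with runs counted once and 0.825 with lengths from first to last peak. It was below 1 in all of these. Gaps under 2 kb made up 16.5% after merging, 27.5% at scores of 100 or more and 22.9% in the highest 50%. Peaks in runs made up 29.7%, 46.1% and 39.8% under the same settings, 47.2% with runs joined at 1 kb and 66.6% at 5 kb. Runs of 4 or more numbered 2, 7 and 2 under the same 3 settings, 11 at 1 kb and 33 at 5 kb, so their count depends on the score threshold and on the gap that joins or merges peaks. The fullest window held 10 peaks after merging and 10 in the highest 50%. The longest peak-free stretch was 745.8 kb at scores of 100 or more and 1035 kb in the highest 50%. The median width was 579 bp after merging, 579 bp at scores of 100 or more and 692.5 bp in the highest 50%, and the median score was 672.3 at scores of 100 or more. The share of peaks under 100 was 24.4% after merging and 28.6% without scores of 3100 or more, both chosen after seeing the data. Distances from transcription starts were not run, for want of an annotation of the same assembly. No paired analysis was possible because the list comes from 1 ChIP sample. The read depth is unknown, so weak peaks and bare stretches cannot be tied to a detection limit.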

Other observations

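Peaks scored 3100 or more followed each other directly at 1 place on 2L. Between 21827975 and 22025025, 4 consecutive peaks scored 3100 or more over 197.1 kb. The first of them had the highest deposited score of the arm, 3183.54. Their widths were 759 to 1283 bp, and none had another peak within 2 kb. Elsewhere on 2L no 2 neighbouring peaks both scored 3100 or more. Beyond this group, 13 peaks followed over the last 861.6 kb up to the final peak, of which 3 scored 1000 or more and the highest scored 1550.68.

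The longest streak of consecutive peaks scored 1000 or more comprised 8 peaks from 8708819 to 8989586, with scores between 1173.79 and 2695.11 and widths between 612 and 1040 bp, and 6 of them were single. A peak-free stretch of 208.8 kb, from 8740878 to 8949648, lay within this streak. The next streaks held 4 peaks each. The longest streak of peaks under 100 comprised 5 peaks from 6089031 to 6324096, with scores of 72.23 to 82.98 over 235.1 kb.

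Leaving out weak peaks can, by construction, only keep or lengthen the bare stretches. At scores of 100 or more, the longest stretch was no longer that of 508.3 kb but one of 745.8 kb from 10010293 to 10756127, which held 2 peaks, the stronger scored 87.07. In the highest 50% of scores of the whole list it grew to 1035 kb, from 10010293 to 11044891. It then held 4 weaker peaks, the strongest scored 114.0. These stretches and streaks were singled out after their values were seen, and no test was made on them.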
